A study of Mus musculus with 23 samples.

Results

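The 35 genes described here encode the enzymes, transporters and electron carriers of mitochondrial and peroxisomal fatty acid oxidation. They were picked by gene symbol from a list of the pathway's steps. No measured value entered the rule, although earlier results of these data were known when the list was drawn up. All 35 were found among the 24917 gene loci of the count table, and all 35 were tested in every comparison. RNA was sequenced from the colonic epithelium of male C57BL/6 mice that were 6 weeks old when the diets began and were followed for 43 weeks. No transgene or drug was involved, and diet was the only variable besides the batch named in the sample titles. Control mice (LF) ate a diet with 10% fat for all 43 weeks, and obese mice (HF) ate a diet with 60% fat for all 43 weeks. Formerly obese mice (HF-LF) ate the high-fat diet for 15 weeks and the low-fat diet for the other 28 weeks. Batch 1 held 4 LF, 4 HF-LF and 3 HF samples, and batch 2 held 4 LF, 5 HF-LF and 3 HF samples, 23 in all. The methods name fewer mice per regimen than there are samples of each diet here, and the sources do not state whether some mice gave more than 1 sample, so the p-values measure the spread between these samples, part of which may be technical.

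Fatty acids enter oxidation as acyl-CoA, made by acyl-CoA synthetases. Long chains cross the inner mitochondrial membrane on carnitine, through carnitine palmitoyltransferases and a carrier, and are then shortened in repeated rounds of dehydrogenation, hydration, a further dehydrogenation and thiolytic cleavage. Very long and branched chains are first shortened in peroxisomes, which use their own enzymes and send the products on as carnitine esters. Colonocytes are known for drawing much of their energy from the oxidation of butyrate, a short-chain fatty acid made by the gut flora, while a high-fat diet brings more long-chain fatty acids to the tissue.

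The libraries held 29189922 to 65320947 counts on genes, and the 35 members took between 0.443% and 0.55% of them in each library. Each member was counted at least 56 times in each library, and the least counted, Acot1, 56 to 325 times. At 56 counts, counting error alone has a coefficient of variation of 13.4%, as large as the 13.4% that edgeR estimated for the spread between samples beyond counting error. Epithelial markers summed to between 12800 and 17600 CPM (counts scaled to the library's total) in every sample, and none of the 10 was called in HF against LF over both batches. The summed smooth muscle markers reached at most 50.3 CPM and the summed fibroblast markers at most 51.7 CPM, and in HF against LF the median log2 fold change was -1.37 over the 6 smooth muscle markers with none called, -0.68 over the 6 fibroblast markers with 1 called lower (Pdgfra), and -0.42 over 4 tested endothelial markers with 1 called lower (Vwf). Of the 7 fat cell markers Adipoq was at 0 in 15 samples and Plin1 in 14, with at most 0.212 and 0.154 CPM in any, and Cfd, Lep and Retn reached at most 0.537 CPM. Cidec and Lpl, at 3.5 to 17.2 and 6.23 to 24.4 CPM, were the only fat cell markers tested, and neither was called, at log2 fold changes of 0.37 and 0.10. None of 7 tested immune markers and none of 3 tested neuron and glia markers was called, at medians of -0.33 and -0.25. Among the epithelial subtypes, none of 7 colonocyte markers was called, at a median log2 fold change of 0.07. In batch 1 these summed to 9780 to 14800 CPM in HF, 10200 to 17300 in HF-LF and 10000 to 11800 in LF. In batch 2 they were at 10100 to 11200, 8280 to 10400 and 8570 to 11300. For the other subtypes, 2 of 7 goblet markers (28.6%) and 4 of 8 stem and cycling markers (50%) were called higher in HF. Of the latter 1 (12.5%) was called lower, and of all genes 9% were called higher and 9.11% lower. The median log2 fold change was -0.10 over the goblet markers and 0.26 over the stem and cycling markers. Summed goblet markers were at 29000 to 32400 CPM in HF and 33000 to 39900 in LF in batch 2. In batch 1 they were at 17900 to 24600 and 20000 to 30900. Without the library of HF replicate 3 of batch 1, 1 stem and cycling marker was called higher and no fibroblast marker lower. The goblet and endothelial counts were then as before, and the goblet median was 0.04. Of all genes 5.97% were called higher and 5.04% lower in that fit. Their part in the results below was not tested, and in bulk epithelium a change in the makeup of cells and a change in RNA per cell cannot be told apart. The library of HF replicate 3 of batch 1 stood apart from the rest on the second principal component, and calls lost without it are named below.

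The upstream sequences of a few members are shown as examples, picked with the results that follow known. Hadha and Hadhb had similar log2 fold changes. Cpt2 separated the diets in each batch but was not called over both. Acaa1a was the only member called lower, and Acaa1b is its near copy. Of all genes 9.11% were called lower. HF lay above LF in each batch for 2.29% of all genes and below for 2.44%. Hadha and Hadhb, which encode the subunits of the trifunctional protein, lie head to head on chromosome 5, and the 272 bases between their start sites are upstream of both. Cpt2 is on the minus strand of chromosome 4, and Acaa1a and Acaa1b lie on opposite strands of chromosome 9. The sequences are from RefSeq windows on GRCm38.p6, the reference behind mm10, run 5′ to 3′ on the strand named, and end at the base before the start site. Capitals mark GC boxes (GGGCGG) and CCAAT boxes (CCAAT) on either strand.
Hadha to Hadhb, chr5:30154981-30155252, plus strand: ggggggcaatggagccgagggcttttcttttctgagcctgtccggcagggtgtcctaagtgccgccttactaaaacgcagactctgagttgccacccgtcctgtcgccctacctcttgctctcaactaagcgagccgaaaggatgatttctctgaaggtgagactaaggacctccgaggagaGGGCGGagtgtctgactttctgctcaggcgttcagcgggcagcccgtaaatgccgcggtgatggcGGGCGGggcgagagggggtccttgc
Cpt2, chr4:107923590-107923839, minus strand: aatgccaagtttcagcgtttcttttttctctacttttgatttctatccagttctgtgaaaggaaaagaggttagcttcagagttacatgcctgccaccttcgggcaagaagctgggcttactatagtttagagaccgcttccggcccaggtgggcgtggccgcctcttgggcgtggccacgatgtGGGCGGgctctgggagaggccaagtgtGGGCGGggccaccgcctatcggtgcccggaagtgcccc
Acaa1a, chr9:119341044-119341293, plus strand: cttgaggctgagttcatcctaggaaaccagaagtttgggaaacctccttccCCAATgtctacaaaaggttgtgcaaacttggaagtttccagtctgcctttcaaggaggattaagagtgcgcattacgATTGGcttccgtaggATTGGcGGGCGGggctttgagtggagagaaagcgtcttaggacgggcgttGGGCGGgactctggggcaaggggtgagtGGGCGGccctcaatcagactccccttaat
Acaa1b, chr9:119157094-119157343, minus strand: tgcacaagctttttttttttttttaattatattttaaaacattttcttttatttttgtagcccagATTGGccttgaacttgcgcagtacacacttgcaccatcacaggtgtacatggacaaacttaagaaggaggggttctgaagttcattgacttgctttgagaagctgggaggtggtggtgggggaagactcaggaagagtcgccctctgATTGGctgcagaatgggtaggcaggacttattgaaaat
The Acaa1a sequence held 3 GC boxes and 3 CCAAT boxes at 53.6% G and C, and the Acaa1b sequence held no GC box and 2 CCAAT boxes at 41.6%. The Hadha to Hadhb interval and the Cpt2 sequence held 2 GC boxes each and no CCAAT box.

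RefSeq promoter windows of 300 bases, 250 before and 50 after the start site, were found for 31 of the 35 members, 33 windows in all. A GC box on either strand was present in 24 of the 33 windows, against 35.7% of all 32851 windows. A CCAAT box was present in 16 of the 33, against 37.4% of all. The direct repeat of AGGNCA with 1 base between the copies, of the kind PPAR and HNF4 receptors bind, was in none of the 33 windows and in 0.381% of all, and TCAAGGTCA, of the kind estrogen-related receptors bind, was in none and in 0.423%. At such low shares 33 windows would be likely to hold none, so this absence does not set the members apart. Sites outside the windows were not searched. The TATA box TATAAA was likewise in none of the 33 and in 13.6% of all windows. The GC content of the members' windows had a median of 60.7%, against 52.7% over all. These matches describe letters only.

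Levels between genes were compared as CPM per kilobase of exon, averaged over the 23 samples. Hadh, the hydroxyacyl-CoA dehydrogenase for short and medium chains, was highest at 199 CPM per kb, with a range of 163 to 249 over samples. Acads, the short-chain acyl-CoA dehydrogenase, followed at 171 (138 to 202), and Slc25a20, the carnitine-acylcarnitine carrier, at 131 (100 to 156). Acadvl was at 126, Etfb at 117 and Cpt1a at 113 CPM per kb. The ranges of neighbours in this order overlapped. Acot1, Acot2, Acsl4 and Pex11a were lowest, at 1.68, 3.39, 3.44 and 4.08 CPM per kb.

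In obese against control mice over both batches, 10 of the 35 members were called higher and 1 lower. A gene was called where edgeR's quasi-likelihood test gave a Benjamini-Hochberg adjusted p under 0.05 over all 14385 tested genes and a fold change above 1.2, and of all genes 9% were called higher and 9.11% lower. By adjusted p alone 16 members were higher and 1 lower, against 15% and 13.4% of all genes. The log2 fold change was above 0 for 33 of the 35, with a median of 0.16 and a range of -0.28 to 0.61, while the median over all genes was -0.01. The called members were spread over 7 of the 8 steps into which the pathway was divided. They were Acsl5, Crot, Acadl, Hadha, Hadhb, Decr1, Eci2, Abcd3, Scp2 and Acot1, which were higher, and Acaa1a, which was lower. Without HF replicate 3 of batch 1, 8 members were called higher and none lower, against 5.97% and 5.04% of all genes. Abcd3, Acsl5, Acot1 and Acaa1a then lost their calls, and Cpt2 gained one.

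**Figure D1:**
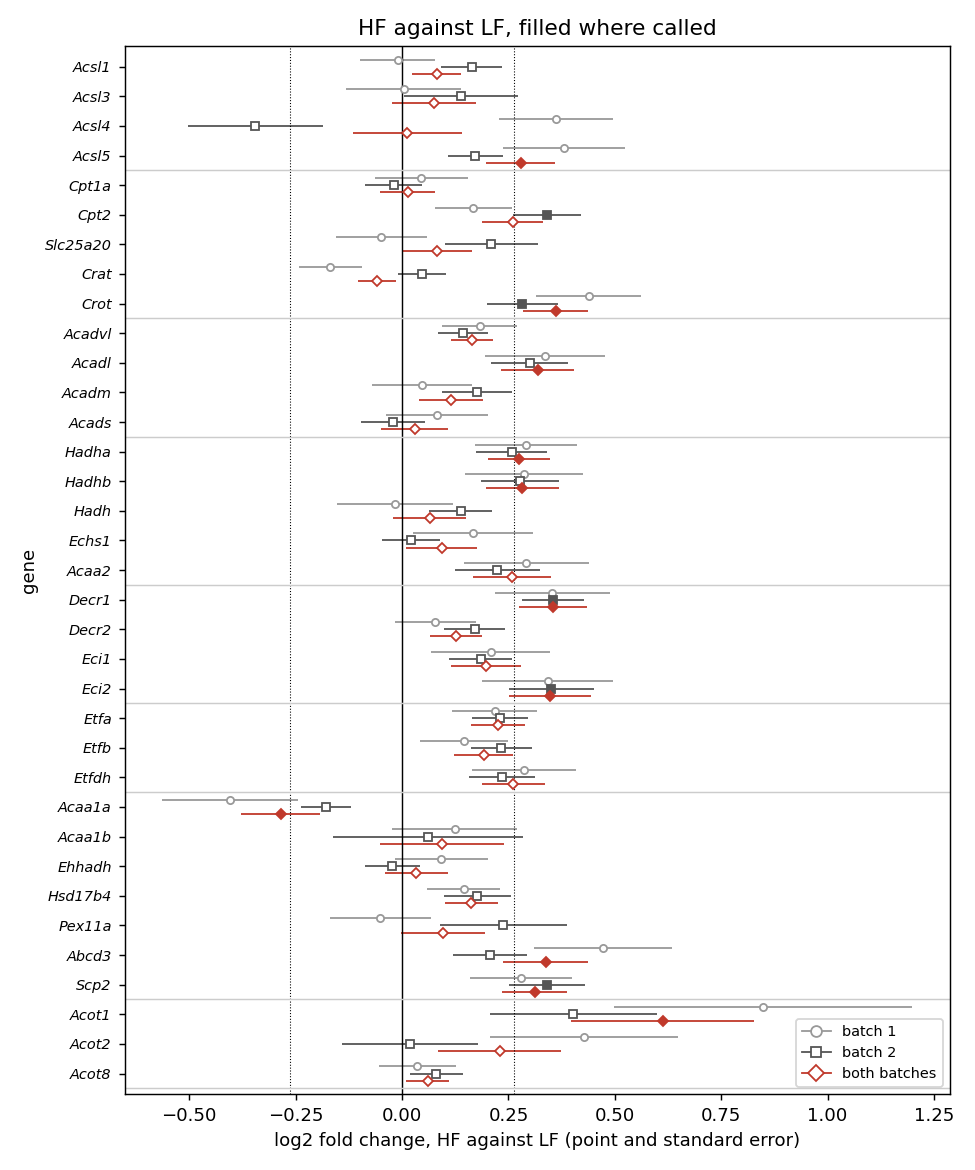
Log2 fold change of each member in HF against LF (horizontal axis, point and standard error) in batch 1, in batch 2 and over both batches, ordered by step of the pathway; filled points were called and dotted lines mark a fold of 1.2. Of the 35 red points for both batches, 33 lie right of 0, and Acaa1a is the only filled one to the left.

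Within batch 1 none of the members was called in HF against LF, and neither was any other gene (0% of 14428). At an unadjusted p under 0.05, 12 members were higher and 2 lower, against 22.2% of all genes in either direction, and the median over the members was 0.17. DESeq2 called 1 member higher in this batch, against 2.05% of all genes, and voom with sample weights called 6 higher and none lower, against 8.04% and 8.75%. Without HF replicate 2, edgeR called 4 higher, against 5.23% of all genes. Within batch 2, 5 members were called higher and none lower, against 3.03% and 4.4% of 14377 genes, with a median of 0.18. These 5 were Cpt2, Decr1, Eci2, Crot and Scp2. The count for batch 2 was sensitive to single libraries. It was 0 without LF replicate 1 or 3 or HF replicate 2 or 3, 1 without LF replicate 2, 2 without HF replicate 1 or HF-LF replicate 5, 3 without HF-LF replicate 4, and 10 without LF replicate 4. The share of all genes called in each of these fits is not given, so the counts describe sensitivity only.

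The difference between the batches was tested directly and was called for no member and for none of all genes (0% of 14385, edgeR's quasi-likelihood test). At an unadjusted p under 0.05 it held 2 of the 35 members, a share close to the 6.56% of all genes, and they are named here after their values were seen. For Acsl4 the difference, batch 2 minus batch 1, was -0.71 (SE 0.22, adjusted p = 0.688, edgeR), and for Crat it was 0.21 (SE 0.08, adjusted p = 0.707, edgeR).

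Every HF sample lay above every LF sample for 4 members in batch 1, 18 in batch 2 and 2 in each batch, against 6.53%, 13.8% and 2.29% of all genes. Every HF sample lay below every LF sample in each batch for 1 member, against 2.44% of all genes. The members above in each batch were Cpt2 and Abcd3, and the member below was Acaa1a. For each sample, log2 CPM was also set against the mean of the LF samples of the same batch, and the median over all 35 members was taken. It ran from -0.12 to 0.16 in the 8 LF samples, from -0.16 to 0.23 in the 9 HF-LF samples and from 0.05 to 0.24 in the 6 HF samples. Within batch 1 the LF and HF ranges overlapped, as LF replicate 1, at 0.16, was above HF replicate 2, at 0.05. Within batch 2 they were apart, with LF samples up to 0.12 and HF samples from 0.19 to 0.23. LF replicate 4 of batch 2 was above only HF replicate 2 of batch 1.

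**Figure D2:**
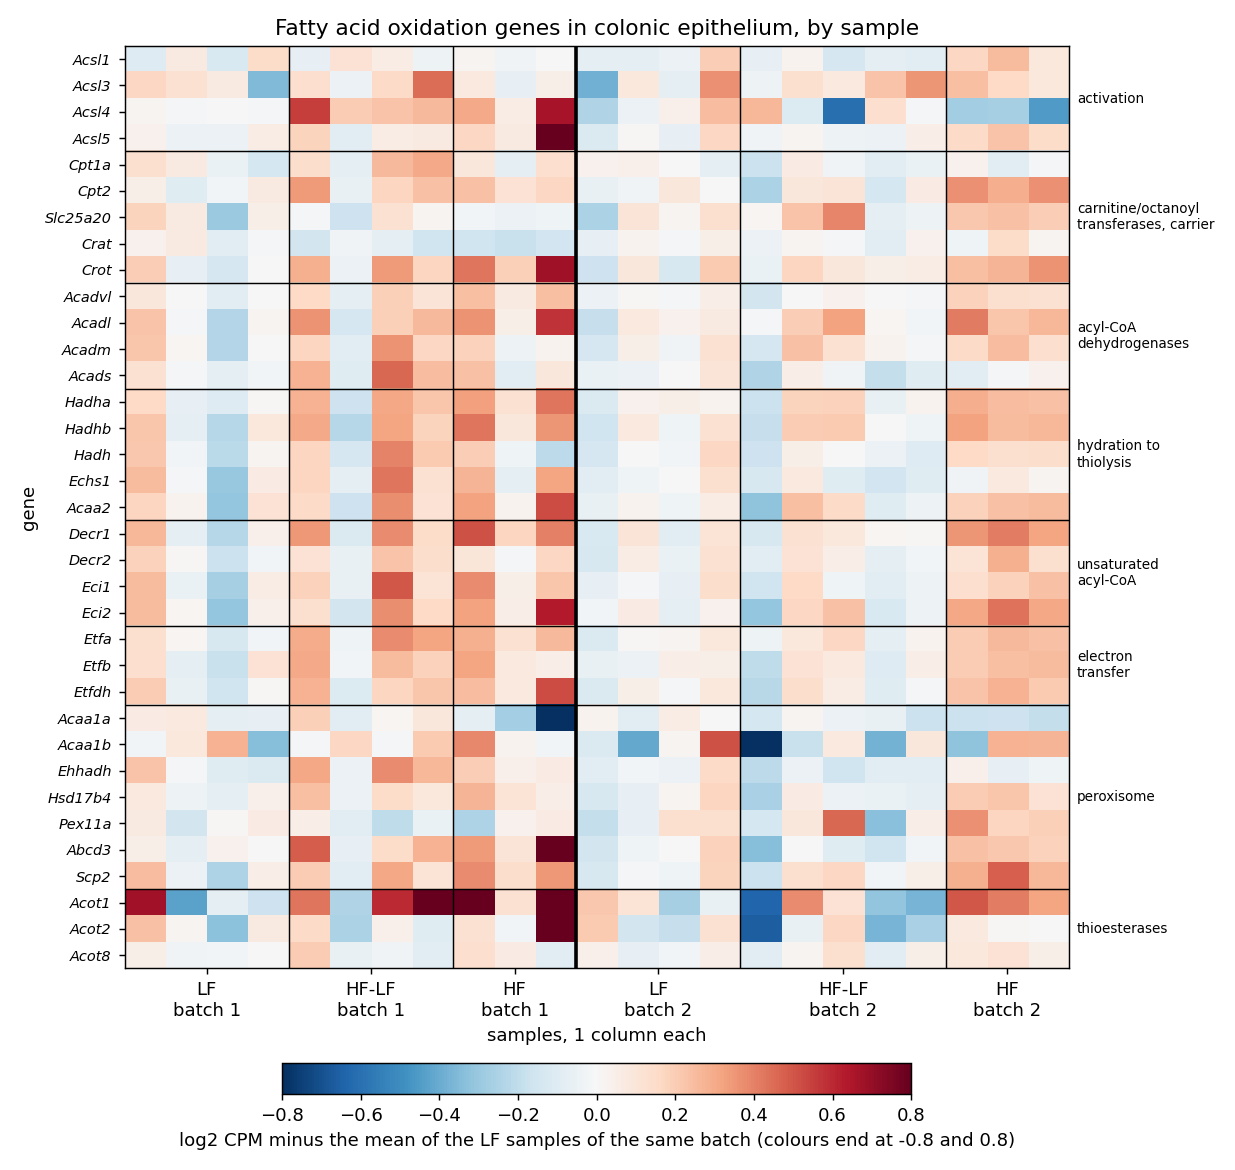
Log2 CPM of the 35 members (rows, by step of the pathway) in each of the 23 samples (columns, by diet and batch), as the difference from the mean of the LF samples of the same batch; red is higher and blue lower. The HF columns of batch 2 are red in most rows, and the rightmost HF column of batch 1 holds dark cells for Acsl5, Abcd3, Acot1 and Acot2 above and for Acaa1a below.

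Activation of long-chain fatty acids is carried out by the acyl-CoA synthetases Acsl1, Acsl3, Acsl4 and Acsl5, of which 1 was called higher in HF. Acsl5, which is abundant in intestinal epithelium and averaged 137 CPM over all samples, had a log2 fold change of 0.28 (SE 0.08, adjusted p = 0.0165). In batch 1 it was at 137, 128 and 212 CPM in the HF samples and at 125, 118, 118 and 127 in the LF samples. The value of 212 came from HF replicate 3, and without that library the log2 fold change was 0.17 and the gene was not called. Acsl3 averaged 294 CPM and Acsl1 56.1 CPM, with log2 fold changes of 0.07 and 0.08 that were not called.
Acsl4, which prefers arachidonic acid, averaged 18.3 CPM and went in opposite directions in the batches without passing the test in either. Its values in batch 1 were 16.3, 15.9, 16.1 and 15.9 CPM in the LF samples, 23.5, 18.5, 18.8 and 19.2 in the HF-LF samples and 19.8, 16.8 and 25.4 in the HF samples. In batch 2 it was at 16.1, 18.4, 19.6 and 22.6 CPM in the LF samples, at 22.9, 17.7, 12.5, 20.9 and 18.9 in the HF-LF samples and at 15.7, 15.8 and 13.9 in the HF samples. All HF samples were above all LF samples in batch 1 and below them in batch 2.

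Of the 5 genes of the carnitine shuttle, Crot was called higher over both batches. Crot encodes the peroxisomal carnitine octanoyltransferase, which passes medium-chain products of the peroxisome on to carnitine. The values of batch 1 were 75.6, 63.2, 60.1 and 66 CPM in the LF samples, 80.5, 64, 83.7 and 74.4 in the HF-LF samples and 88.8, 75.4 and 105 in the HF samples. Batch 2 gave 59.3, 70.7, 60.8 and 76.8 CPM in the LF samples, 64, 75, 70.8, 68.8 and 69.3 in the HF-LF samples and 78.6, 80.2 and 85.4 in the HF samples. LF and HF touched in batch 1, where LF replicate 1 was just above HF replicate 2, and were apart in batch 2. The log2 fold change was 0.36 (SE 0.08, adjusted p = 0.00522), the smallest p of the 35, and 0.31 without HF replicate 3 of batch 1.
Cpt2, the carnitine palmitoyltransferase of the inner membrane that restores acyl-CoA in the matrix, separated the diets in each batch. Its values in batch 1 were 89, 80.4, 85 and 90.5 CPM in the LF samples, 109, 82.6, 97 and 101 in the HF-LF samples and 101, 93.3 and 96.6 in the HF samples. In batch 2 it was at 86.8, 88.8, 96.5 and 90.5 CPM in the LF samples, at 75.9, 96.6, 97.2, 82.2 and 94.8 in the HF-LF samples and at 117, 111 and 117 in the HF samples. Within each batch all HF samples were above all LF samples, while the HF-LF samples overlapped LF in both batches and HF in batch 1. Over both batches the log2 fold change was 0.26 (SE 0.07, adjusted p = 0.0124), which fell just short of a fold of 1.2, and in batch 2 it was 0.34 (SE 0.08, adjusted p = 0.0334).
Cpt1a, the outer-membrane carnitine palmitoyltransferase that is held to limit the rate of entry, averaged 489 CPM. It was at 434 to 522 CPM in the LF samples of batch 1 and at 453 to 525 in the HF samples, and at 458 to 497 and 456 to 495 in those of batch 2. The diets overlapped throughout, and the log2 fold change was 0.01 (SE 0.06, adjusted p = 0.89). Slc25a20 averaged 233 CPM with a log2 fold change of 0.08, and Crat, the carnitine acetyltransferase, averaged 79.8 CPM with a log2 fold change of -0.06. Neither was called.

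**Figure D3:**
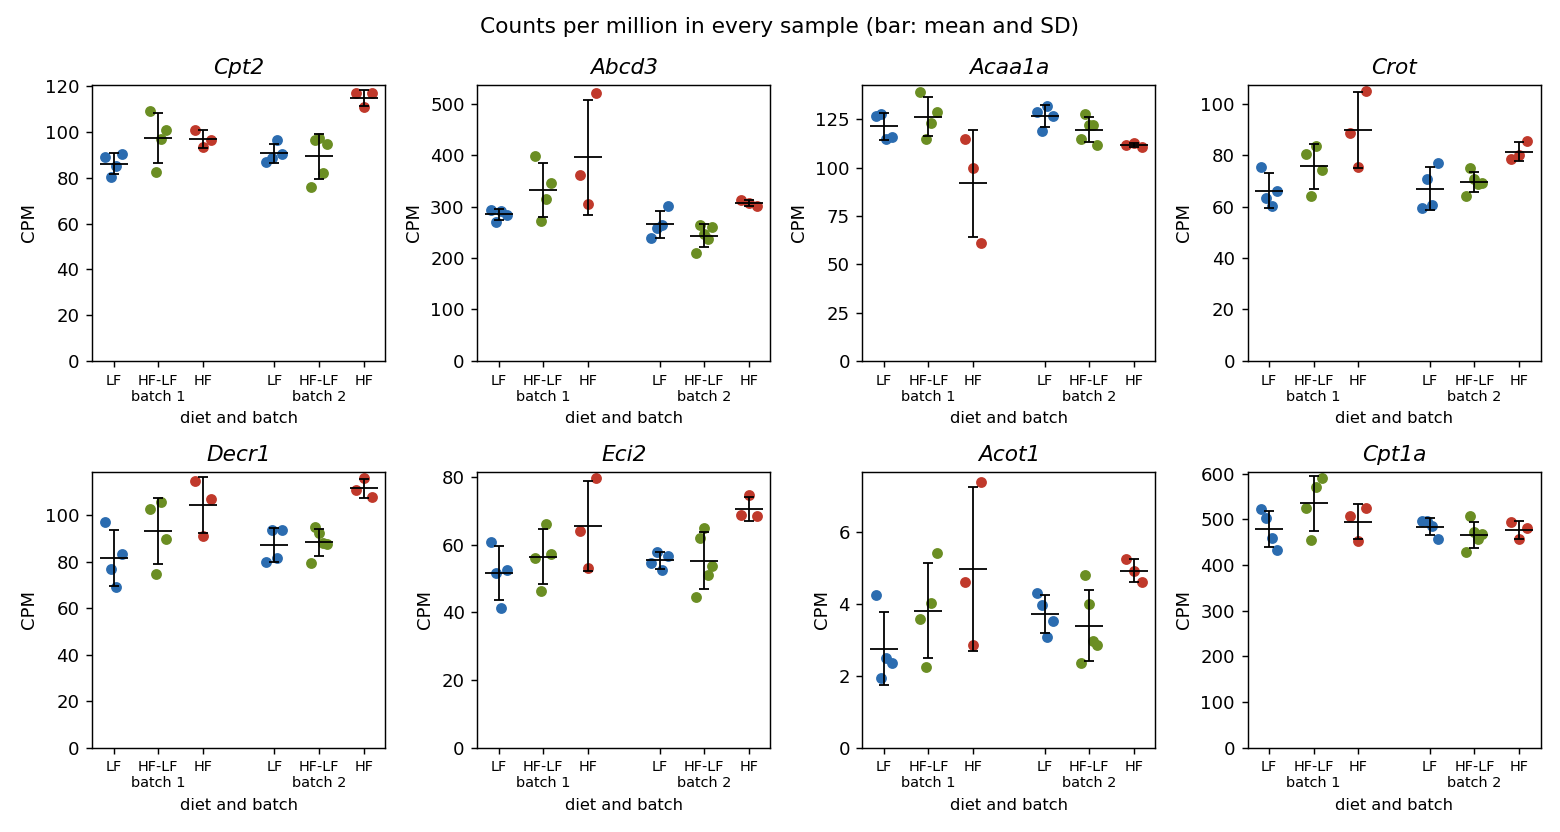
CPM of 8 members (vertical axes, from 0) in every sample by diet and batch, with the mean and SD of each group. Cpt2 and Abcd3 in HF lie above every LF sample of the same batch, Acaa1a lies below, and Cpt1a overlaps among all 3 diets.

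The acyl-CoA dehydrogenases open each round of oxidation and differ in the chain length they prefer. Acadl, the long-chain enzyme, averaged 110 CPM and was called higher in HF, with a log2 fold change of 0.32 (SE 0.09, adjusted p = 0.0117). The values of batch 2 were 122, 106 and 110 CPM in the HF samples, above the 80.4, 96.2, 93.4 and 96.1 of the LF samples. In batch 1 it was at 138, 111 and 161 in HF and 126, 106, 91.6 and 109 in LF, and the groups overlapped. Acadvl, the very-long-chain enzyme of the inner membrane, averaged 274 CPM and had a log2 fold change of 0.16 (SE 0.05, adjusted p = 0.0197), under the fold required. Acadm, for medium chains, averaged 182 CPM with a log2 fold change of 0.11 (SE 0.08), and Acads, for short chains, averaged 319 CPM with 0.03 (SE 0.08). Neither of these was called.

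The later steps in the matrix are carried out by the trifunctional protein for long chains, encoded by Hadha and Hadhb, and by Echs1, Hadh and Acaa2 for shorter ones. Hadha, which carries the hydratase and dehydrogenase, averaged 345 CPM, with a log2 fold change of 0.28 (SE 0.07, adjusted p = 0.011). Hadhb, the thiolase subunit encoded on the other side of the shared interval shown above, averaged 182 CPM, with 0.28 (SE 0.09, adjusted p = 0.0202). In batch 2 Hadha was at 384, 372 and 369 CPM in HF against 289, 321, 324 and 320 in LF, and in batch 1 at 405, 352 and 435 against 361, 310, 301 and 325. The diets were apart in batch 2 and overlapped in batch 1 through LF replicate 1. Hadhb lost its call without HF replicate 1 or LF replicate 3 of batch 1, at 0.26 in each case, as its fold fell under 1.2.
Acaa2, the thiolase for shorter chains, averaged 162 CPM and had a log2 fold change of 0.26 (SE 0.09, adjusted p = 0.038), under the fold required. Echs1, the short-chain hydratase, averaged 159 CPM with 0.09 (SE 0.08), and Hadh averaged 356 CPM with 0.07 (SE 0.09). Neither was called.

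Unsaturated fatty acids need isomerases and reductases before they can be fully shortened, and of the 4 members in this group 2 were called higher. Decr1, the mitochondrial dienoyl-CoA reductase, was at 97.4, 76.8, 69.3 and 83.3 CPM in the LF samples of batch 1, at 103, 74.9, 106 and 89.7 in the HF-LF samples and at 115, 91.2 and 107 in the HF samples. Its values in batch 2 were 80, 93.7, 81.8 and 93.8 CPM in LF, 79.6, 94.9, 92.5, 88 and 87.7 in HF-LF and 111, 116 and 108 in HF. The HF samples of batch 2 were above all others of that batch, and in batch 1 the diets overlapped. The log2 fold change was 0.36 (SE 0.08, adjusted p = 0.00606) over both batches, 0.35 (SE 0.13, adjusted p = 0.178) in batch 1 and 0.36 (SE 0.07, adjusted p = 0.0253) in batch 2.
Eci2, an enoyl-CoA isomerase of peroxisomes and mitochondria, was at 60.8, 51.7, 41.3 and 52.6 CPM in the LF samples of batch 1, at 56, 46.3, 66.1 and 57.1 in HF-LF and at 64, 53 and 79.6 in HF. Batch 2 gave 54.4, 57.9, 52.4 and 56.6 CPM in LF, 44.6, 62, 65, 50.9 and 53.8 in HF-LF and 68.6, 74.7 and 68.5 in HF. All 3 HF samples of batch 2 were above the rest of the batch, and LF replicate 1 of batch 1 was above HF replicate 2. Its log2 fold change was 0.35 over both batches (SE 0.10, adjusted p = 0.0126) and 0.35 in batch 2 (SE 0.10, adjusted p = 0.0457). Eci1, the mitochondrial isomerase, averaged 50.9 CPM with a log2 fold change of 0.20 (SE 0.08), and Decr2, the peroxisomal reductase, averaged 65.4 CPM with 0.13 (SE 0.06), and neither was called.

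Electrons from the acyl-CoA dehydrogenases pass to the electron transfer flavoprotein, encoded by Etfa and Etfb, and on to ubiquinone through Etfdh. All 3 had an adjusted p under 0.05 in HF against LF with a fold under 1.2. Etfdh averaged 120 CPM, with a log2 fold change of 0.26 (SE 0.07, adjusted p = 0.0151). Etfa averaged 109 CPM, with 0.23 (SE 0.06, adjusted p = 0.0152), and Etfb averaged 105 CPM, with 0.19 (SE 0.07, adjusted p = 0.0409). In batch 2 each HF sample was above each LF sample for all 3 genes. Etfdh was there at 135, 139 and 133 CPM in HF against 106, 119, 114 and 122 in LF.

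The 7 peroxisomal members split, with 2 called higher and 1 lower. Abcd3, the transporter that brings long and branched acyl-CoA into peroxisomes, averaged 298 CPM. The values of batch 1 were 294, 270, 292 and 284 CPM in LF, 398, 272, 315 and 345 in HF-LF and 361, 305 and 521 in HF. In batch 2 it was at 239, 259, 264 and 301 CPM in LF, at 209, 264, 247, 237 and 260 in HF-LF and at 312, 307 and 301 in HF. The HF samples were above the LF samples in each batch, although the closest pair in batch 2 rounds to the same value. The log2 fold change was 0.34 (SE 0.10, adjusted p = 0.0183), and 0.24 with no call (adjusted p = 0.0578) without HF replicate 3 of batch 1.
Scp2, which yields a peroxisomal thiolase for branched chains and a lipid carrier from the same locus, averaged 171 CPM. It was called at a log2 fold change of 0.31 over both batches (SE 0.08, adjusted p = 0.00825) and 0.34 in batch 2 (SE 0.09, adjusted p = 0.0382). The gene counts do not separate the products of that locus. In batch 2 Scp2 was at 191, 218 and 188 CPM in HF, above the 144, 155, 153 and 177 in LF.
Acaa1a, the peroxisomal thiolase for straight chains, was lower in HF. Its values in batch 1 were 127, 128, 115 and 116 CPM in LF, 139, 115, 123 and 129 in HF-LF and 115, 100 and 61.3 in HF. Batch 2 gave 129, 119, 132 and 127 CPM in LF, 115, 128, 122, 122 and 112 in HF-LF and 112, 113 and 111 in HF. Each HF sample was below each LF sample of its batch, although the closest pair in batch 1 rounds to the same value. The log2 fold change was -0.28 (SE 0.09, adjusted p = 0.0276), with -0.40 in batch 1 and -0.18 in batch 2. Without HF replicate 3 of batch 1, at 61.3 CPM, it was -0.16 (adjusted p = 0.0474) and under the fold required, as it was with voom, at -0.19. The call was also lost without LF replicate 2 of batch 1 (adjusted p = 0.0584) or LF replicate 3 of batch 2 (adjusted p = 0.0506), and where only LF and HF samples were fitted (adjusted p = 0.055).
Acaa1b, whose sequence is close to that of Acaa1a, averaged 20.2 CPM, or 12 CPM per kb against 66.9 for Acaa1a, and reads shared by the pair could be split between them in counting. Its log2 fold change was 0.09 (SE 0.15), with no call. The bifunctional enzymes Ehhadh and Hsd17b4 averaged 68.7 and 111 CPM, with log2 fold changes of 0.03 (SE 0.07) and 0.16 (SE 0.06, adjusted p = 0.051). Pex11a, which promotes peroxisome division, averaged 9.14 CPM with 0.10 (SE 0.10). None of these 3 was called.

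Thioesterases release free fatty acid from acyl-CoA. Acot1, the cytosolic enzyme, had the largest log2 fold change of the 35 in HF against LF over both batches, at 0.61 (SE 0.21, adjusted p = 0.0364), from the lowest level per kb. The values of batch 1 were 4.23, 1.94, 2.49 and 2.35 CPM in LF, 3.57, 2.23, 4.01 and 5.41 in HF-LF and 4.61, 2.86 and 7.38 in HF. In batch 2 it was at 4.29, 3.97, 3.06 and 3.53 CPM in LF, at 2.36, 4.8, 3.99, 2.95 and 2.84 in HF-LF and at 5.23, 4.91 and 4.59 in HF. The diets overlapped in batch 1 and were apart in batch 2. The call was lost without LF replicate 2, 3 or 4 or HF replicate 1 or 3 of batch 1, and without LF replicate 3 or HF replicate 1 or 2 of batch 2, with adjusted p up to 0.118 without HF replicate 3 of batch 1. Acot2, the mitochondrial enzyme beside Acot1 on chromosome 12, averaged 7.43 CPM with a log2 fold change of 0.23 (SE 0.14), and reads shared by this near-identical pair could be split between them. It was at 16.8 CPM in HF replicate 3 of batch 1 and between 3.87 and 9.92 CPM in all other samples. Acot8, the peroxisomal enzyme, averaged 40.7 CPM with 0.06 (SE 0.05), and neither of these was called.

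At 4 steps a pair of members that do the same chemistry on different substrates was compared within each sample as a ratio of counts. The pairs were picked with the changes known, so the ratios are given as a description with no test. Acadl to Acads, long to short chain, was 0.426 to 0.549 in HF and 0.351 to 0.42 in LF in batch 1, and 0.307 to 0.37 against 0.239 to 0.285 in batch 2. Each HF sample was above each LF sample of its own batch, and the mean difference of the log2 ratio was 0.25 in batch 1 and 0.32 in batch 2. Without HF replicate 3 the value of batch 1 was 0.13.
Hadha to Hadh was 1.04 to 1.49 in HF and 0.921 to 1.03 in LF in batch 1, and 0.947 to 0.97 against 0.805 to 0.93 in batch 2. The 1.49 came from HF replicate 3, and the mean difference of the log2 ratio in batch 1 was 0.31 with that library and 0.14 without it. Hadhb to Acaa2 was 1.12 to 1.36 against 1.17 to 1.34 in batch 1, and 1 to 1.09 against 0.92 to 1.03 in batch 2. This last pair overlapped in both batches. Acaa1a to Scp2 was 0.307 to 0.579 in HF against 0.682 to 0.869 in LF in batch 1, and 0.517 to 0.588 against 0.716 to 0.898 in batch 2, with a mean difference of the log2 ratio of -0.74 and -0.52. Without HF replicate 3 the value of batch 1 was -0.44. The HF-LF samples spanned 0.63 to 0.777 and 0.694 to 0.824, above every HF sample of their batch.

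**Figure D4:**
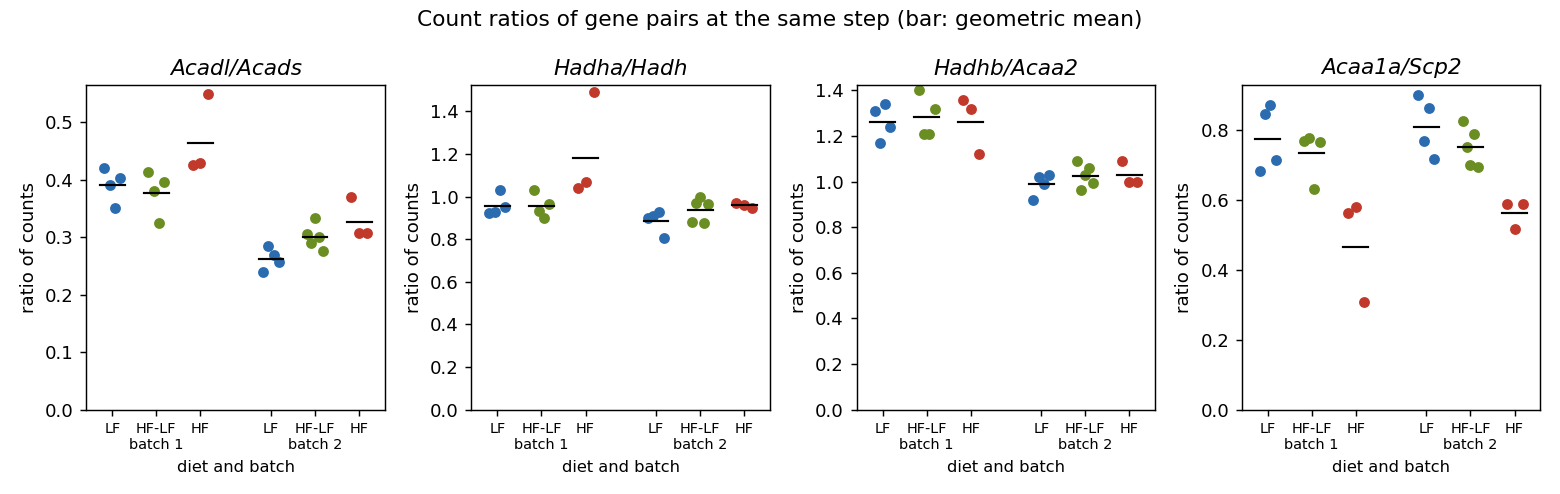
Ratio of counts of 4 pairs of members at the same step (vertical axes, from 0) in every sample by diet and batch, with the geometric mean of each group. Acaa1a to Scp2 is at most 0.588 in the 6 HF samples and at least 0.63 in all others, and Hadhb to Acaa2 overlaps among the diets.

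In formerly obese against control mice, the question was whether the level of these genes still differed after the return to the low-fat diet. None of the 35 members was called in batch 1, in batch 2 or over both batches, by edgeR, DESeq2 or voom. Of all genes 0% were called in batch 1 and over both batches, and in batch 2 0% were called higher and 0.00696% lower. At an unadjusted p under 0.05, 2 members passed in batch 1, none in batch 2 and 1 over both batches, against 5.29%, 4.65% and 4.11% of all genes, so the members' shares were near or below those of all genes. These were Etfa and Acsl4 in batch 1, at log2 fold changes of 0.23 (SE 0.09) and 0.31 (SE 0.13), both with adjusted p = 0.792, and Etfa over both, at 0.13 (SE 0.06, adjusted p = 0.98). The median over the members was 0.14 in batch 1, -0.02 in batch 2 and 0.05 over both. The log2 fold change was above 0 for 30 of the 35 in batch 1, 12 in batch 2 and 29 over both. Of all genes 50.3%, 52.1% and 54.1% were above 0. In batch 1 the median of 0.14 was close to the 0.17 of HF against LF, where no member was called either. The absence of calls in that batch therefore does not show a return to the LF level. The 11 members with a call in HF against LF over both batches were at 0.14 for Acot1 (SE 0.20) and Acadl, 0.12 for Crot, 0.10 for Decr1 and Hadha, 0.09 for Hadhb, 0.07 for Scp2, 0.06 for Eci2, 0.04 for Abcd3, 0.02 for Acsl5 and -0.02 for Acaa1a, with SE between 0.07 and 0.09 for all but Acot1. Batch 2 minus batch 1 was also called for no member in this comparison, with a smallest adjusted p of 0.632.

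Obese and formerly obese mice were compared to see how the genes stood under continued high-fat feeding and after the switch. This comparison shares the HF samples with the first and the HF-LF samples with the second, so the 3 are not independent. Over both batches 2 members were called higher in HF and 1 lower, against 4.9% and 5.44% of all genes, with a median over the members of 0.13. Eci2 was higher by a log2 fold change of 0.29 (SE 0.09, adjusted p = 0.0373) and Abcd3 by 0.30 (SE 0.10, adjusted p = 0.0404), while Acaa1a was at -0.27 (SE 0.09, adjusted p = 0.0473). The call for Acaa1a was kept in 2 of 23 fits that left out 1 sample and in 2 of 7 alternative fits. It was lost with RLE size factors, without the filter, with DESeq2, with voom and with only the 2 diets, at -0.26 to -0.15 and adjusted p of 0.0313 to 0.106. The share of members called higher was close to that of all genes, and the count of 3 moved with single libraries. It was 0 without HF replicate 3 or HF-LF replicate 2 of batch 1 or HF replicate 2 of batch 2, and 1 without HF-LF replicate 4 of batch 1 or HF replicate 1 or 3 or HF-LF replicate 1 or 4 of batch 2. It was 5 without HF-LF replicate 3 of batch 1, 6 without HF-LF replicate 3 of batch 2 and 9 without HF replicate 2 of batch 1. Without HF replicate 3 of batch 1, 1.88% of all genes were called higher and 1.58% lower. For the other fits the share of all genes is not given, so their counts describe sensitivity only.
In batch 1 none was called, against 0% of all genes higher and 0.00693% lower, and Acsl5 and Acot2 were higher and Acaa1a lower at an unadjusted p under 0.05, with a smallest adjusted p of 0.412. DESeq2 and voom called none there either. In batch 2, 5 members were called higher and none lower, against 5.61% and 8.89% of all genes, with a median of 0.20. Cpt2 had a log2 fold change of 0.36 (SE 0.08, adjusted p = 0.0143), Decr1 0.34 (SE 0.07, adjusted p = 0.0138) and Eci2 0.35 (SE 0.10, adjusted p = 0.0262). Abcd3 had 0.33 (SE 0.08, adjusted p = 0.0205) and Scp2 0.31 (SE 0.08, adjusted p = 0.0259). The count was 0 without HF replicate 2, 2 without HF replicate 3, 3 without HF-LF replicate 4, 13 without HF-LF replicate 3 and 15 without HF-LF replicate 2 of that batch. As the share of all genes called in each of these fits is not given, the counts describe sensitivity only.

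Other genes of the pathway were taken from lists of neighbouring functions. Of 41 further oxidation and peroxisome genes 39 were tested, and 4 were called higher and none lower in HF against LF over both batches. That is 10.3% of them, close to the 9% of all genes called higher. Acat1, the mitochondrial acetoacetyl-CoA thiolase, averaged 183 CPM and had a log2 fold change of 0.37 (SE 0.09, adjusted p = 0.00642). Eci3, a further enoyl-CoA isomerase, averaged 13.5 CPM with 0.28 (SE 0.07, adjusted p = 0.00825). The thioesterases Acot12 and Acot5 averaged 0.369 and 0.203 CPM with 1.66 (SE 0.38, adjusted p = 0.00628) and 1.02 (SE 0.39, adjusted p = 0.0492). Without HF replicate 3 of batch 1 they were at 0.98 and 0.67, and Acot5 lost its call while Ech1, a dienoyl-CoA isomerase, gained one at 0.27.
Of 6 tested synthetases for short and medium chains, 1 was called higher (16.7%, against 9% of all genes). It was Acsm3, at 229 CPM and a log2 fold change of 0.45 (SE 0.12, adjusted p = 0.0119), or 0.30 without HF replicate 3 of batch 1. None of 4 tested genes of very-long-chain uptake and activation was called.
Of 14 tested PPAR receptors, coactivators and targets, 3 were called higher and 4 lower (21.4% and 28.6%), against 9% and 9.11% of all genes. The targets Angptl4, a lipase inhibitor, Vnn1, a pantetheinase, and Fabp1, a fatty acid binding protein, had log2 fold changes of 0.59 (SE 0.19, adjusted p = 0.0292), 0.36 (SE 0.09, adjusted p = 0.00864) and 1.02 (SE 0.30, adjusted p = 0.0176), the last from a mean of only 0.277 CPM. The receptors Ppara and Ppard, which switch on oxidation genes when they bind fatty acids, were lower, at -0.37 (SE 0.08, adjusted p = 0.00522) and -0.40 (SE 0.10, adjusted p = 0.008). The coactivator Ppargc1b was at -0.46 (SE 0.12, adjusted p = 0.0095) and Ucp2, a mitochondrial carrier, at -0.27 (SE 0.09, adjusted p = 0.034). Without HF replicate 3 of batch 1, 2 were called higher and 3 lower, against 5.97% and 5.04% of all genes. Angptl4, at 0.57 (adjusted p = 0.0584), and Ucp2, at -0.16 (adjusted p = 0.0934), then lost their calls.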

How the data were processed

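Colonic epithelium was freed from whole colon with EDTA, and stranded, ribosome-depleted total RNA libraries were sequenced. The authors deposited whole-number read counts per gene, not normalized. The submitters' processing notes name cutadapt 1.2.1, STAR 2.5, featureCounts 1.5.0-p1 and mm10; the annotation and the strand setting of counting are not given in the sources used here, so overlapping genes may share reads. Samples were grouped by the diet and batch in their labels. Counts were scaled by TMM factors, genes were filtered with filterByExpr by diet, and edgeR 4.0.16 (R 4.3.3) quasi-likelihood tests were fitted to all genes in each batch and over both with batch as a covariate. Adjusted p-values are Benjamini-Hochberg over all tested genes. CPM are gene counts scaled to library totals adjusted by TMM. DESeq2 1.42.0 and limma 3.58.1 (voom) served as alternatives, and the edgeR, DESeq2 and voom fits were tested on simulated data. Members and gene lists were chosen with earlier results of these data known. Every member was named, with statistics for those called in any comparison or among the 10 smallest p, values in every sample for the non-overlapping and the 4 largest called, and called genes of the neighbouring lists. Exon lengths came from GENCODE. Acaa2, Hsd17b4, Crat and Decr1 had no promoter window.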

Additional observations from a re-analysis of the deposited data

Results flagged for a closer look

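Within groups of 4 or 5 samples, 5 of 140 combinations of member and group held a sample far from the others by Dixon's test at the 95% level, and chance alone flags about 1 in 20 groups. In HF-LF of batch 2, Acadvl was at 254 CPM in replicate 1 against 279 to 289 in the others, and Echs1 was at 178 CPM in replicate 2 against 152 to 158. In LF of batch 2, Hadha was at 289 CPM in replicate 1 against 320 to 324, and Acsl1 was at 58.2 CPM in replicate 4 against 48 to 49.2. In HF-LF of batch 1, Acsl4 was at 23.5 CPM in replicate 1 against 18.5 to 19.2. The HF groups of 3 samples were too small for this test.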

How the results depend on the processing

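The alternatives were size factors of the RLE kind, no expression filter, DESeq2, voom with sample weights, only the 2 diets compared and adjusted p alone. Further ones were a block for the replicate number (edgeR within a batch, voom over both), the mean of batch-specific effects, and leaving out each sample in turn. In HF against LF over both batches, between 8 and 14 members were called under all of them except adjusted p alone, which called 17 against 11. Of all genes, adjusted p alone called 4079 against 2605. In HF against LF in batch 1, where none was called, DESeq2 called 1 and voom 6, against 512 and 2422 of all genes. In HF against HF-LF, adjusted p alone called 11 against 5 in batch 2 and 7 against 3 over both batches, and 8 were called in batch 2 without the filter. Of all genes, adjusted p alone called 2824 against 2084 in batch 2 and 2371 against 1488 over both batches. Without the filter 2115 of all genes were called in batch 2. Leaving out 1 sample at a time gave 0 to 4 members in batch 1 and 0 to 10 in batch 2 for HF against LF, and 0 to 15 in batch 2 and 0 to 9 over both for HF against HF-LF. The calls among all genes are not given for most of these fits, so the ranges describe sensitivity only. The median member changes moved by less than the spread between replicates (0.121) under every alternative, but medians close to 0 changed sign without 1 sample: 0.04 in HF against HF-LF in batch 1 ranged from -0.02 to 0.12, and -0.02 in HF-LF against LF in batch 2 from -0.05 to 0.02. Among the members in HF against LF over both batches, the direction turned for Acsl4, at 0.01 over both batches and never called, with -0.15 under voom, -0.01 with the replicate block and -0.09 to 0.09 without 1 sample, and for Cpt1a, at 0.01 and 0 to 0.05 without 1 sample. The cause was not tested.

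The replicate numbers gave no clear pairing of samples across batches. Deviations of same-numbered samples correlated there between -0.324 and 0.221, and 2 of 11 correlated best with their own number. Across the diets of a batch they correlated between -0.372 and 0.396, with 8 of 20 pairs over 0.1. Whether the numbers pair samples within a batch is not settled. With the replicate number as a block within a batch (edgeR), 0 members were called in HF against LF in batch 1 and 7 in batch 2. Of all genes 92 and 2080 were called with this block, against 0 and 1069 without it. Over both batches the block was another model, voom with samples of the same diet and number correlated across batches, at -0.102. It called 10 members, against 2844 of all genes. DESeq2, RLE factors and no filter each called 14 over both, against 2756, 2610 and 2532 of all genes. Each member had at least 56 counts in each library, and each batch held 3 HF samples. Leaving out HF replicate 3 of batch 1 from the lists and the count ratios was chosen after seeing the data.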
